A study of Mus musculus with 4 samples.

Results

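This account describes 38 mouse genes of antioxidant defense in the liver, those of the NRF2 pathway, of glutathione, thioredoxin and peroxiredoxin chemistry, of superoxide and peroxide removal, and of the control of ferroptosis. They were listed by symbol, and their values were read from the assembled loci that overlap their exons on build GRCm38, among 21655 protein-coding genes. Over the 4 libraries 195 loci overlapped them, 49 of 41541 in wild type replicate 1, 44 of 26238 in wild type replicate 2, 59 of 56237 in knockout replicate 1 and 43 of 30190 in knockout replicate 2. RNA came from the livers of male mice on a C57BL/6 background. In 2 libraries the animals were wild type, and in 2 they were homozygous for a disrupted hemojuvelin gene (Hjv), which encodes a co-receptor that raises hepcidin in hepatocytes. Every animal, wild type included, ate the same low iron food (AIN-93G), which held 2.5 mg iron per kg, for 50 days starting at 5 weeks of age, and liver was taken at 12 weeks. The disruption is carried in every cell, and no group on another diet is analysed here. The labels give a commercial supplier for the wild type mice and another laboratory's line for the knockout mice, so genotype and origin of the animals cannot be told apart. The labels count 2 to 3 mice per group without tying libraries to animals, and p-values measure only the spread between these libraries.

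NRF2, the product of Nfe2l2, is a transcription factor that KEAP1 binds and marks for degradation until oxidants or electrophiles modify KEAP1. Free NRF2 pairs with small MAF proteins at antioxidant response elements and raises enzymes that make glutathione, reduce thioredoxin and supply NADPH. Ferroptosis is a form of cell death in which iron drives the peroxidation of membrane phospholipids, and GPX4 with glutathione, or AIFM2 with coenzyme Q, stops the chain. Liver is rich in these enzymes because hepatocytes produce peroxide in peroxisomes and mitochondria and handle iron and foreign compounds.

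Levels are given in FPKM (fragments per kilobase and per M mapped fragments, a value corrected for length and depth), deposited for loci assembled in each library on its own. They were joined here into 1 value per gene and scaled between libraries, so that levels of different genes can be compared per length. Depth, read from the step between confidence bounds taken as 1 fragment, was 51.3, 55.0, 87.0 and 131.6 M fragments in wild type replicate 2, knockout replicate 1, wild type replicate 1 and knockout replicate 2. Scaled values of Hjv were 9.22 and 29.6 FPKM in wild type and 0.236 FPKM in knockout replicate 2, and knockout replicate 1 showed no locus there. Knockout replicate 1 was assembled into the most pieces, with 38.5% of its loci 150 to 250 bases long, against 4.48% to 21.3% in the others. Knockout replicate 2 stood apart by base composition. Over 7926 genes its log2 ratio to the wild type mean followed the GC content of the transcript with a Spearman correlation of 0.52. The correlation was 0.07 for knockout replicate 1, and 0.26 for the log2 gap between the wild type libraries. These are correlations across genes of libraries that share the same reference, given as a description. A missing locus does not mean a level of 0: even albumin (Alb), the main secreted protein of hepatocytes, had no locus in any library.

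Of the 38 genes, 33 had loci spanning enough of the transcript in all 4 libraries and were tested. By limma, 0 of them passed an adjusted p of 0.05, beside 0% of all 7926 genes tested, and their adjusted p ran from 0.401 to 0.983. At an unadjusted p under 0.05 there were 8 of 33, 5 higher and 3 lower in knockout, against 11.2% of all genes tested (5.85% higher and 5.32% lower). They were Aifm2, Keap1, Glrx, Prdx2 and Gss on the higher side, and Pgd, Prdx3 and Nfe2l2 on the lower side. The groups did not overlap for 21 of 33 genes, against 46.1% of all genes tested. For 10 of them knockout was the higher pair, against 22.3% of all genes, and for 11 the lower, against 23.8%. The 33 genes had no common direction, and their median log2 difference of -0.05 stood beside 0.02 over all genes tested. That split moved with the scaling, with 15 genes higher and 18 lower on scaled values, and 20 higher and 13 lower on values as deposited, where the median over all genes was 0.19. With a library left out, the median of the 33 genes ran from -0.11 without wild type replicate 1 to 0.05 without wild type replicate 2. With 2 libraries against 2, the smallest p that exact permutation of the labels allows for any gene is 0.333.

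**Figure D1:**
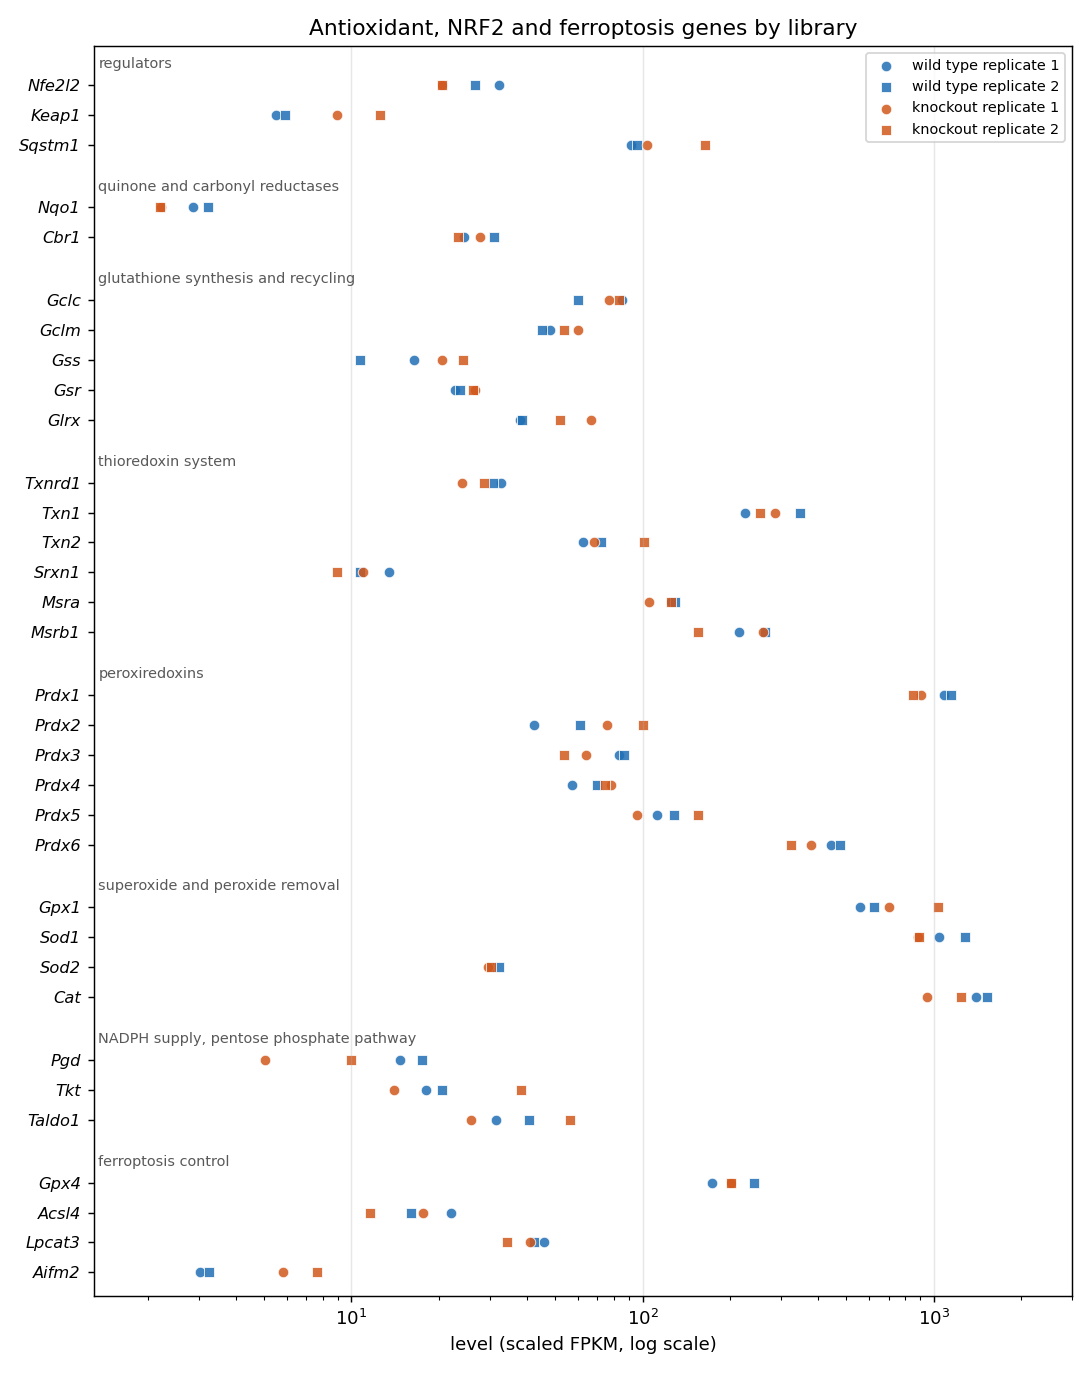
Level of each of the 33 tested genes in each library, in scaled FPKM on a log axis, grouped by role. Blue marks are the wild type libraries and orange marks the knockout libraries, with circles for replicate 1 and squares for replicate 2. Catalase is the highest in every library, and Nqo1 and Aifm2 lie below 10.

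The most abundant of these genes removed peroxide and superoxide, and the order of the group means at the top was shared by both genotypes. Catalase (Cat) reached 1465 ± 89.6 scaled FPKM in wild type against 1095 ± 210 in knockout livers (SD, n = 2 each). Sod1 measured 1162 ± 165 and 885 ± 3.60, Prdx1 1118 ± 39.9 and 877 ± 39.3, Gpx1 591 ± 45.8 and 869 ± 234, and Prdx6 461 ± 24.2 and 352 ± 39.5, wild type first. In knockout Sod1, Prdx1 and Gpx1 did not differ beyond their spread, nor did Sod1 and Prdx1 in wild type. By library, Prdx1 lay above Sod1 in replicate 1 of each group, and in knockout replicate 2 Gpx1 lay above both. Cat, Sod1, Sod2 and Gpx1 together held 48.9% and 49.4% of the summed level of the 33 genes in wild type, against 45.5% and 51.1% in knockout. The share of the peroxiredoxins was 29.4% and 28.1% in wild type, against 28.3% and 24.9% in knockout.

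The antioxidant response element gives the genes of the pathway a shared sequence that can be looked for. Its core was searched as TGACNNNGC on both strands (GCNNNGTCA on the other) in RefSeq promoter windows of GRCm38.p6, from 250 bases before to 50 bases after each start. The core can overlap the AP-1 motif TGACTCA. Of the 38 genes 34 had a window, and Prdx6, Gclc, Msra and Gsr had none. At least 1 match was present for 9 of the 34 genes (26.5%), which include genes that were not tested. Among the tested members 7 had a match and 22 a window without one, against a match for 17.7% of all tested genes with a window. By window, 20.9% of those of the 34 genes held a match, against 12.4% of all windows. The matches are shown for 6 tested genes, with the core in capitals and up to 26 bases on each side, read 5′ to 3′ on the gene's strand.
Nfe2l2 (chr2:75704869-75704913, minus strand): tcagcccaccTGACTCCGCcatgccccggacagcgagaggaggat
Gclm (chr3:122245397-122245457, plus strand): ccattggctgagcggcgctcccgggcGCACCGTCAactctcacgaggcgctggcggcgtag
Srxn1 (chr2:152105526-152105573, plus strand): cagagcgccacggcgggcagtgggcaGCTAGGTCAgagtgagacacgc
Txnrd1 (chr10:82859088-82859148, plus strand): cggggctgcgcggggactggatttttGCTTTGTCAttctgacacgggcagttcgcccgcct
Prdx1 (chr4:116685440-116685500, plus strand): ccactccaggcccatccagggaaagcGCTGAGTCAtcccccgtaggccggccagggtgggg
Sod1 (chr16:90220680-90220740, plus strand): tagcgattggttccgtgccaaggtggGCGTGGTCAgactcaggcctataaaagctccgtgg
The core began 240 bases before the start in Nfe2l2, and on the other strand 134 bases before it in Gclm, 133 in Prdx1, 92 in Txnrd1 and 56 in Sod1, and 29 bases after it in Srxn1. G6pdx, Ncoa4 and Pgd also had a match. Those of Txnrd1, Ncoa4 and Pgd were in windows at starts downstream of the gene's first window, which held none. Of the 7 tested genes with a match, 5 lay below in both knockout libraries (Nfe2l2, Txnrd1, Prdx1, Sod1 and Pgd), 1 above (Gclm) and 1 overlapped (Srxn1), against 23.8% below and 22.3% above over all genes tested. The direction of Pgd turned with summed loci, and on values as deposited 4 of the 33 genes lay below in place of 11. On those values the median log2 difference over all genes was 0.19 in place of 0.02, and the groups did not overlap for 45.1% of all genes. Of the 22 tested genes with a window and no match, 8 lay above, 5 below and 9 overlapped. These counts describe letters in a short window, not binding.

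Among the regulators, the gene of the factor itself was lower and that of its inhibitor higher in both knockout libraries, neither past the test. Nfe2l2 (chromosome 2, 75675513 to 75704641) stood at 32.2 and 26.7 scaled FPKM in wild type, against 20.5 in each knockout library. The groups did not overlap, with a log2 difference of -0.50 (SE 0.19, limma adjusted p 0.446). With the highest locus per gene it was -0.27, with the loci summed -0.19, and on values as deposited -0.30. Keap1 (chromosome 9, 21229730 to 21239361) stood at 5.51 and 5.90 in wild type against 8.91 and 12.6 in the knockout pair, with a log2 difference of 0.79 (SE 0.23, limma adjusted p 0.419). The Keap1 transcript was assembled as 2 and 3 loci in the wild type libraries, 3 in knockout replicate 1 and 1 in knockout replicate 2. Its 3′ piece had deposited values of 9.37 and 10.3 FPKM in wild type and 16.9 in knockout replicate 1, and the whole-gene locus of knockout replicate 2 had 12.0. With the highest locus per gene the log2 difference of Keap1 was 0.31, with the loci summed 0.23, and after a correction for GC content 0.36. Sqstm1 encodes p62, an autophagy receptor that binds KEAP1. It stood at 91.3 and 95.5 in wild type, while the knockout replicates gave 104 and 164, at a log2 difference of 0.48 that was 0.14 without knockout replicate 2 and 0.81 without knockout replicate 1.

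Of 5 tested glutathione genes, Gclm, Gss, Gsr and Glrx lay above in both knockout libraries, against 22.3% of all genes tested, and Gclc overlapped, with none past the test. Gclc and Gclm, the catalytic and modifier subunits of glutamate-cysteine ligase, carry out the rate-limiting step. Gclc stood at 84.7 and 60.0 in wild type against 76.9 and 82.9 in the knockout pair, and the groups overlapped. Without wild type replicate 2 its log2 difference was -0.09, against 0.16 with all libraries. Gclm measured 48.1 and 45.0 against 60.2 and 53.9, above in both knockout libraries with a log2 difference of 0.29 and an SE of 0.18. Glutathione synthetase (Gss, chromosome 2, 155563181 to 155592810) stood at 16.4 and 10.7 in wild type against 20.5 and 24.1 in the knockout pair. Its log2 difference was 0.71 (SE 0.26, limma adjusted p 0.444), 0.42 without wild type replicate 2 and 0.47 after the GC correction. In knockout replicate 1 the loci used spanned 66.5% of the Gss transcript, and a further locus toward the 5′ end, with a deposited value of 7.45 FPKM, was shared with a second gene and not used. Glutathione reductase (Gsr), which recycles oxidized glutathione, measured 22.6 and 23.6 against 26.5 and 26.2. Glutaredoxin (Glrx, chromosome 13, 75839868 to 75850154), which removes glutathione from protein thiols, stood at 37.9 and 38.6 in wild type against 66.5 and 52.1 in the knockout pair. Glrx was assembled as 1 locus in every library, with a log2 difference of 0.61 (SE 0.20, limma adjusted p 0.435), and 0.70 after the GC correction. Slc7a11, which imports cystine for glutathione synthesis, had no locus over its exons in any of the 4 libraries.

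In the thioredoxin system 1 of 6 tested genes lay below in both knockout libraries and 5 overlapped, where 46.1% of all genes tested did not overlap. Txnrd1, the cytosolic thioredoxin reductase and a selenoprotein, stood at 32.8 and 30.6 in wild type against 24.0 and 28.6 in the knockout pair, with a log2 difference of -0.26 and an SE of 0.19. Cytosolic thioredoxin (Txn1) stood at 224 and 348 in wild type against 285 and 254 in the knockout pair. Mitochondrial thioredoxin (Txn2) measured 62.7 and 72.0 against 68.0 and 102. For Txn1 the wild type libraries enclosed the knockout values, and for Txn2 knockout replicate 2 alone lay above. The loci of Txn1 spanned 52.0% to 58.1% of its transcript, and the annotation holds a processed copy, Txn-ps1, so that its reads may be split. Sulfiredoxin (Srxn1), which repairs overoxidized peroxiredoxins, measured 13.5 and 10.7 against 10.97 and 8.89. The methionine sulfoxide reductases return oxidized methionine to its reduced form. Msra measured 125 and 129 against 106 and 125, and the selenoprotein Msrb1 215 and 264 against 259 and 155. Txnrd2, the mitochondrial reductase, stood at 8.74 and 9.47 in wild type, against 12.0 in knockout replicate 1, and was not tested because knockout replicate 2 had no locus over it.

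Peroxiredoxins, which reduce peroxides with electrons from thioredoxin or glutathione, divided between the directions. Prdx2, a cytosolic form (chromosome 8, 84969587 to 84974834), stood at 42.5 and 60.9 in wild type against 75.6 and 101 in the knockout pair. Its log2 difference was 0.76 (SE 0.27, limma adjusted p 0.439). It stayed at 0.78 after the GC correction, and at 0.50 to 1.02 with a library left out. Prdx3, the mitochondrial form (chromosome 19, 60864051 to 60874556), lay the other way at 83.3 and 86.2 against 64.2 and 53.8. Its log2 difference was -0.52 (SE 0.19, limma adjusted p 0.441), and -0.32 on values as deposited. Both genes were assembled as 1 used locus in each library and had groups that did not overlap. Prdx1 stood at 1090 and 1146 in wild type against 905 and 849 in the knockout pair, and Prdx6, the form with 1 catalytic cysteine, 444 and 478 against 380 and 324. Prdx4, the form of the endoplasmic reticulum, measured 57.2 and 69.5 against 77.7 and 74.2. Prdx1 and Prdx6 lay below and Prdx4 above in both knockout libraries, at log2 differences of -0.35, -0.39 and 0.26. Prdx5 measured 112 and 128 in wild type, which lay between the knockout replicates at 95.7 and 156. The annotation holds a processed copy of Prdx6, Prdx6-ps2, which may share its reads.

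Of the enzymes that remove superoxide and peroxide, Sod1, Sod2 and Cat lay below and Gpx1 above in both knockout libraries. The shares over all genes tested were 23.8% below and 22.3% above. Cytosolic superoxide dismutase (Sod1, chromosome 16, 90220754 to 90226329) stood at 1045 and 1279 in wild type against 883 and 888 in the knockout pair, a log2 difference of -0.38 (SE 0.23) that was -0.24 without wild type replicate 2 and -0.18 on values as deposited. Catalase, the peroxisomal enzyme that splits hydrogen peroxide and holds heme iron (chromosome 2, 103453849 to 103485160), stood at 1402 and 1528 in wild type against 947 and 1244 in the knockout pair. Its log2 difference was -0.43 (SE 0.25, limma adjusted p 0.555), and -0.23 without knockout replicate 1. Mitochondrial Sod2 measured 30.3 and 32.1 against 29.4 and 30.2, a gap smaller than the spread of the wild type pair, and its log2 difference of -0.06 became 0.14 on values as deposited, 0.0031 under quantile normalization and 0.02 after the GC correction. The selenoprotein Gpx1, a glutathione peroxidase, stood at 559 and 624 in wild type, while the knockout replicates gave 704 and 1034. The log2 difference of Gpx1 was 0.53 with an SE of 0.27, 0.16 after the GC correction, 0.25 without knockout replicate 2 and 0.81 without knockout replicate 1.

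The pentose phosphate pathway, which makes NADPH for glutathione and thioredoxin reductases, was uneven. Phosphogluconate dehydrogenase (Pgd, chromosome 4, 149149991 to 149166771) stood at 14.6 and 17.5 in wild type against 5.03 and 9.95 in the knockout pair. This was the largest difference among the 33 genes, at a log2 value of -1.07 (SE 0.34, limma adjusted p 0.422). Its size and sign moved with how the loci were joined. Wild type libraries held Pgd as 1 locus, and in knockout replicate 1 a 3′ piece had a deposited value of 18.8 FPKM and the rest of the gene 3.63 FPKM. With the highest locus per gene the log2 difference was -0.29, and with the loci summed 0.13. G6pdx, which catalyzes the step that commits glucose 6-phosphate to the pathway, stood at 2.20 and 3.08 in wild type against 1.81 and 1.99 in the knockout pair. It was not tested because its loci spanned 32.3% and 44.6% of the transcript in the knockout libraries. The transketolase Tkt stood at 18.0 and 20.4 in wild type, while the knockout replicates gave 13.9 and 38.3. The transaldolase Taldo1 stood at 31.4 and 40.6 in wild type, while the knockout replicates gave 25.7 and 56.4. For Tkt and Taldo1 the knockout libraries lay on opposite sides of the wild type pair, and no direction can be given.

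Among the genes that control ferroptosis, Aifm2 was the one with the smallest p of the 33. Aifm2 (FSP1, chromosome 10, 61715263 to 61739260) reduces coenzyme Q at membranes and stops lipid peroxidation without glutathione. It stood at 3.01 and 3.23 scaled FPKM in wild type against 5.81 and 7.58 in the knockout pair, a ratio of the means of 2.15. The groups did not overlap, with a log2 difference of 0.89 (SE 0.21, limma adjusted p 0.401). The deposited values of its single used loci were 2.81 and 2.95 FPKM in the wild type libraries and 7.24 FPKM in knockout replicate 2. Each wild type library held 2 loci over the Aifm2 exons, of which 1 was used. Knockout replicate 1 held 3, of which 2 were used. In knockout replicate 1 a 3′ piece of 1892 exonic bases stood at 8.96 FPKM and a 5′ piece at 3.79 FPKM. The log2 difference of Aifm2 was 0.76 after the GC correction, 1.28 with the loci summed, and 0.72 to 1.05 with a library left out. In the other fits on all 4 libraries its adjusted p by limma ran from 0.281 (values as deposited) to 0.885 (loci summed). All these fits reuse the same libraries and are not independent.

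Gpx4, the selenoprotein that reduces phospholipid peroxides, measured 173 and 242 in wild type and 201 in each knockout library, inside the wild type range. Its log2 difference of -0.03 became 0.18 on values as deposited and 0.09 under quantile normalization. Gpx4 had the highest GC content of the tested members, 60.2%, and its difference after the GC correction was -0.62 with an SE of 0.36. The annotation holds a transcribed processed copy, Gpx4-ps2. Acsl4, which loads polyunsaturated fatty acids onto coenzyme A, measured 21.9 and 16.0 against 17.6 and 11.6. Lpcat3, which puts such acids into phospholipids, measured 46.0 and 42.4 against 41.0 and 34.2. Lpcat3 lay below in both knockout libraries at a log2 difference of -0.23 (SE 0.19), and Acsl4 overlapped. Ncoa4, the receptor that delivers ferritin to autophagosomes, measured 25.8 in wild type replicate 1 over the whole transcript. It had 6.42% of the transcript spanned in knockout replicate 1 and no locus in wild type replicate 2 or knockout replicate 2, so no comparison was possible.

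Nqo1 and the carbonyl reductases reduce quinones and carbonyls with NADPH, and Nqo1 is a common readout of NRF2 activity. Nqo1 (chromosome 8, 107388225 to 107403206) was among the least abundant of the tested members, at 2.85 and 3.22 scaled FPKM in wild type against 2.21 and 2.19 in the knockout pair. Its groups did not overlap, with a log2 difference of -0.33 (SE 0.19, limma adjusted p 0.552). Cbr1 measured 24.4 and 31.0 against 27.7 and 23.1, and its log2 difference of -0.11 became 0.09 on values as deposited. Cbr3 had a usable value in knockout replicate 2 alone, 0.561.

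**Figure D2:**
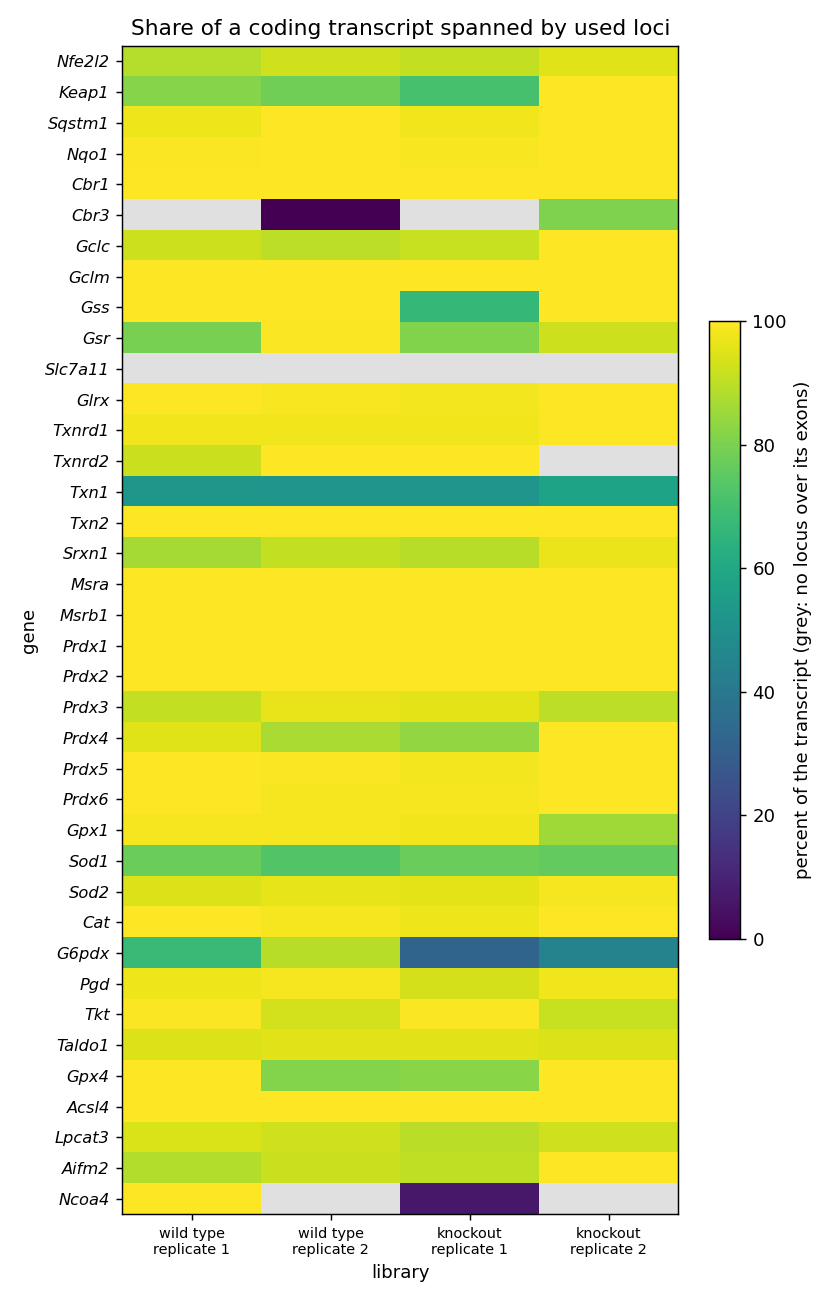
Share of a coding transcript, in percent, spanned by the loci used for each of the 38 genes in each library. Yellow cells are near 100, grey cells had no locus over the exons, and Cbr3 shows 0 in wild type replicate 2, where its locus was not used. Slc7a11 is grey in all 4 libraries, G6pdx falls to 32.3% in knockout replicate 1, and Txn1 stays at 52.0% to 58.1%.

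How the transcripts were pieced together touched part of the list. Of the 33 tested genes, 24 had exactly 1 used locus in every library, and of these 6 lay above, 9 below and 9 overlapped. The shares over all genes tested, however assembled, were 22.3% above and 23.8% below. Of the 8 genes at an unadjusted p under 0.05, Gss, Prdx2, Prdx3 and Glrx belonged to those 24. Aifm2, Keap1, Pgd and Nfe2l2 had more than 1 used locus in at least 1 library. The count covers used loci only. Gss had a further, unused locus in wild type replicate 1 and knockout replicate 1, and Prdx2 in knockout replicate 2. With the highest locus per gene 3 genes stood at an unadjusted p under 0.05, against 8.66% of all genes tested. With the loci summed 1 did, against 5.10% of all genes. For 22 of the 33 genes, 11 higher and 11 lower, the direction was the same in every other fit that tested the gene. These were 17 fits for Aifm2 and Nfe2l2, and 16 for Keap1, Nqo1, Gss, Gsr and Sod1.

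**Figure D3:**
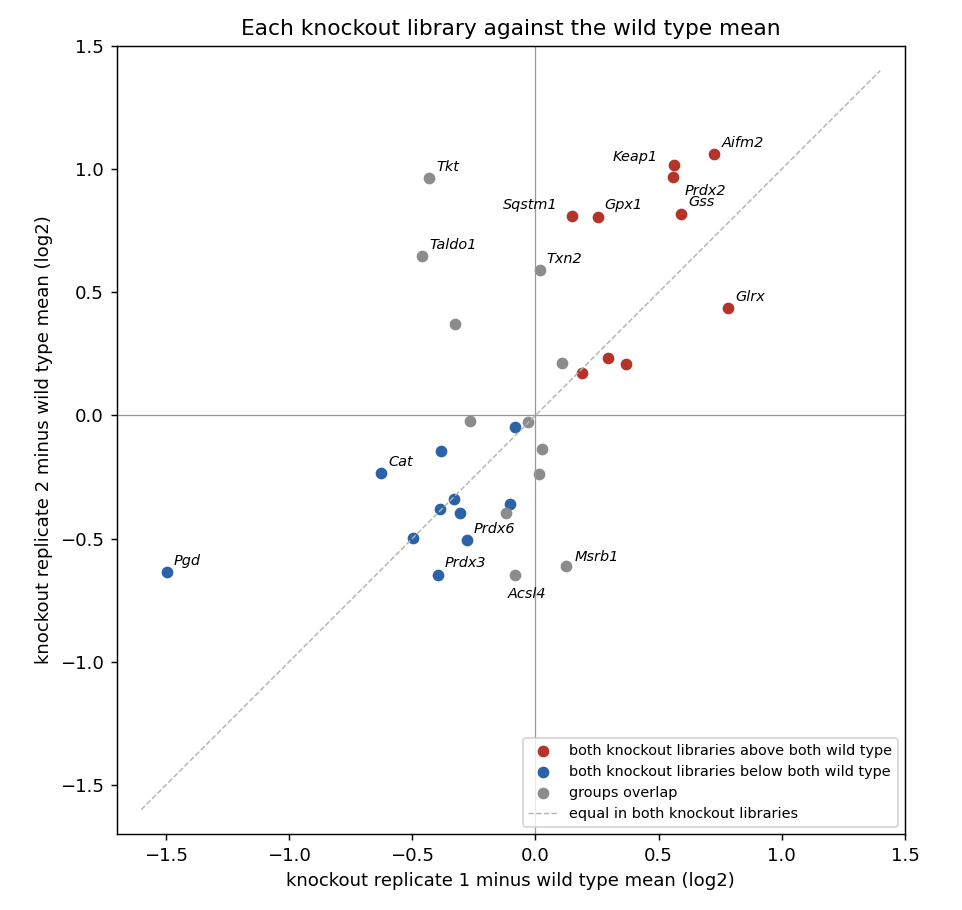
Log2 level of each of the 33 tested genes in knockout replicate 1 (x axis) and knockout replicate 2 (y axis), each minus the mean of the wild type libraries. Red points are genes with both knockout libraries above both wild type libraries, blue points those with both below, and grey points overlap. Tkt and Taldo1 lie on opposite sides of 0 in the 2 libraries, and Pgd lies farthest out in knockout replicate 1.

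The knockout libraries differed more from each other than the wild type libraries did. The gap between replicates exceeded 0.5 on the log2 scale for 9 of the 33 genes in knockout and for 3 in wild type, and its median was 0.25 in knockout and 0.18 in wild type. Over all genes tested the SD of the log2 gap was likewise larger in knockout, at 0.65 against 0.42 in wild type. For the 33 genes, transcript GC content had a Spearman correlation of 0.52 with the log2 gap between the knockout libraries. The correlation was 0.37 with the log2 difference between genotypes, and also 0.37 with the log2 gap between the wild type libraries. Over all 7926 genes the correlation was 0.48 for the knockout gap, 0.38 for the difference between genotypes and 0.26 for the wild type gap. The tested members had a median GC content of 52.1%, against 49.4% over all genes tested. The 10 genes above had a median of 52.2% and the 11 below one of 47.7%, beside 53.1% and 46.7% for all genes above and below. After a loess correction for GC content in each library, chosen after seeing the data, 10 genes lay above and 11 below, 10 and 9 of them the same genes as before. After it the groups did not overlap for 45.7% of all genes tested. The correction left 5 of the 33 genes at an unadjusted p under 0.05, against 11.1% of all genes tested. Of these 5, Aifm2, Glrx, Prdx2 and Pgd were among the 8 named before. The other was Prdx5, with a log2 difference of -0.43 that had been 0.02.

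**Figure D4:**
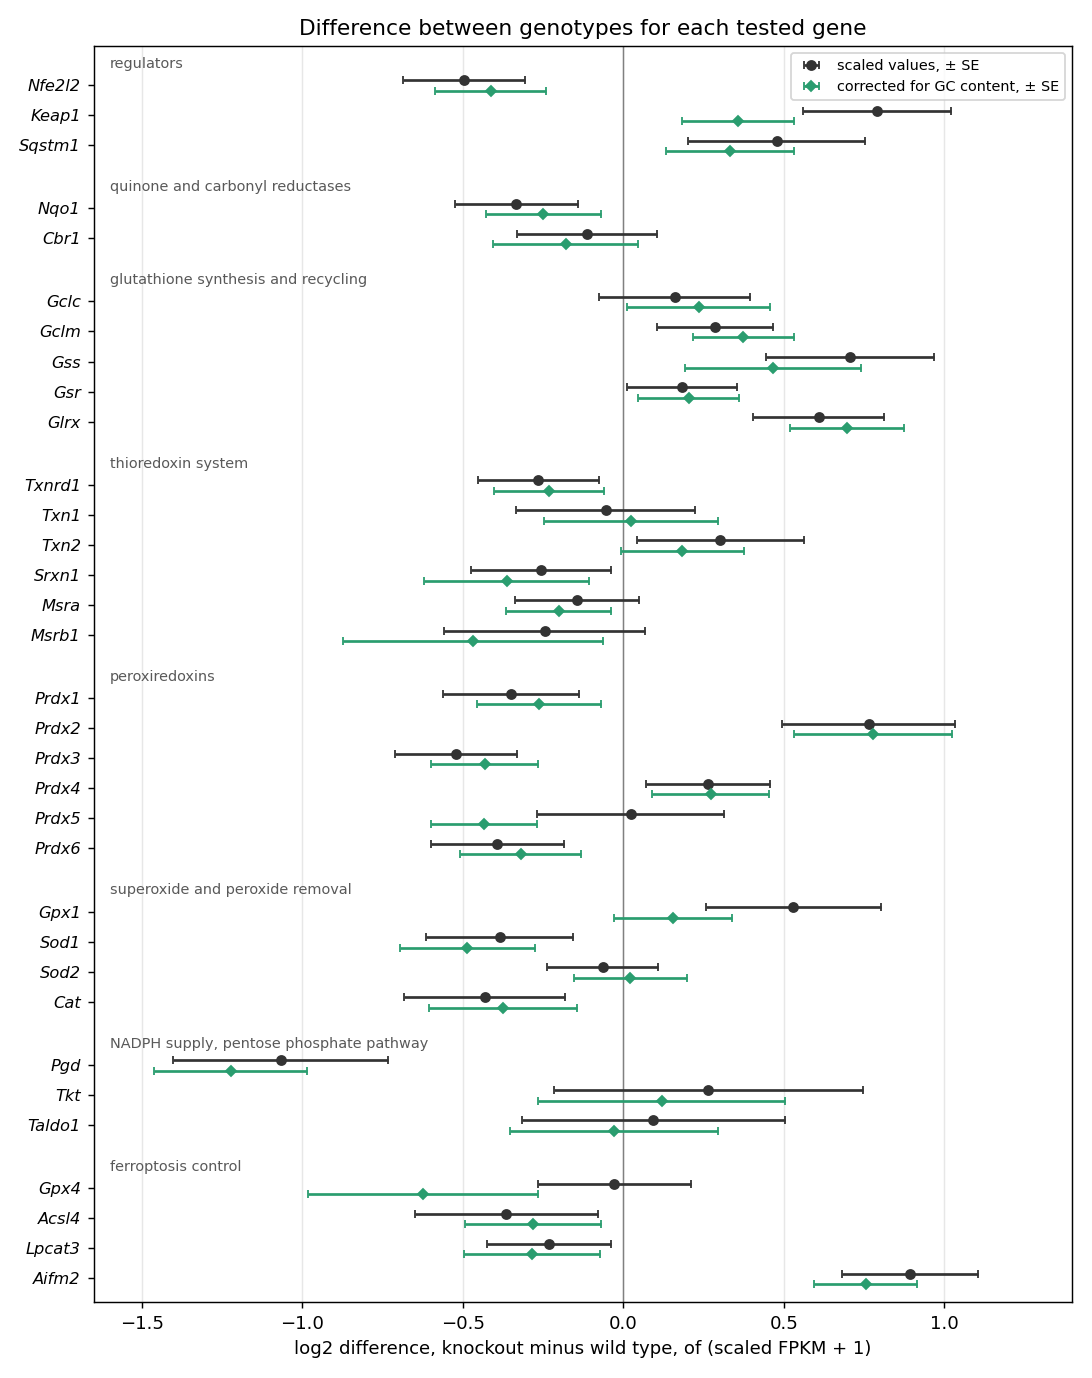
Log2 difference, knockout minus wild type, of each tested gene with its standard error (SE), on scaled values (black circles) and after the correction for GC content (green diamonds). Aifm2, Prdx2 and Glrx lie on the higher side in both, Pgd and Prdx3 on the lower side in both, and Keap1, Gpx1, Prdx5 and Gpx4 move most with the correction.

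Other genes of the NRF2 pathway, 36 listed and 29 tested, were likewise divided. Both knockout libraries lay above for 6 and below for 9, with a median log2 difference of -0.16, and 2 genes were higher and 5 lower at an unadjusted p under 0.05. Over all genes tested 22.3% lay above and 23.8% below, and 5.85% were higher and 5.32% lower at that p. The cytosolic malic enzyme Me1, another source of NADPH and a known NRF2 target, stood at 166 and 187 in wild type against 59.0 and 57.2 in the knockout pair, the largest difference of the 29 at -1.59. The glutathione transferases Gstm2 and Gstm6 measured 81.1 and 77.7, and 91.8 and 97.8, in wild type. In knockout Gstm2 measured 47.7 and 44.2 and Gstm6 51.5 and 64.7, at log2 differences of -0.78 and -0.70. Their family holds close copies whose reads may be split, and Gstm1 lay the other way at 563 and 582 against 793 and 663. Esd, an esterase that breaks down S-formylglutathione, stood at 211 and 207 in wild type against 138 and 127 in the knockout pair. On the higher side were the biliverdin reductase Blvrb, at 25.9 and 21.1 against 48.0 and 45.0, and the heme transporter Slc48a1, at 10.8 and 13.9 against 18.3 and 19.997. Heme oxygenase 1 (Hmox1), a classical target of NRF2, measured 8.65 and 12.0 against 11.1 and 14.4, and overlapped. Adjusted p of the 29 genes ran from 0.263 to 0.935 by limma.

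Of 31 other ferroptosis genes 21 were tested, with 7 above, 7 below and 7 overlapping and a median log2 difference of 0.13. At an unadjusted p under 0.05 there were 3 higher and 2 lower, with adjusted p from 0.263 upward by limma. The shares over all genes tested were 22.3% above, 23.8% below and 11.2% at that p. The transferrin receptor Tfrc, which brings iron into the cell, stood at 15.5 and 11.3 in wild type against 2.73 and 2.03 in the knockout pair, the largest difference of the 21 at -2.08. The small heat shock protein gene Hspb1 stood at 3.99 and 5.03 in wild type against 1.63 and 1.13 in the knockout pair, at -1.21. Pebp1, which partners with lipoxygenases, measured 141 and 74.3 against 196 and 249. Dpp4, a cell surface peptidase, measured 24.5 and 24.2 against 49.2 and 36.8. Chac1, which breaks down glutathione, measured 0.822 and 0.485 against 1.55 and 3.49. Slc3a2, the partner chain of Slc7a11, measured 10.5 and 9.82 against 12.3 and 14.7.

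Among other redox enzymes, 36 listed and 25 tested, 3 lay above and 10 below in both knockout libraries, and 0 genes were higher and 2 lower at an unadjusted p under 0.05, which is 8% of the list against 11.2% of all genes tested. The shares over all genes were 22.3% above and 23.8% below. Txnip, which binds and inhibits thioredoxin, stood at 44.9 and 65.5 in wild type against 30.5 and 26.1 in the knockout pair, at a log2 difference of -0.92. Txnip (chromosome 3, 96557957 to 96561883) is a near neighbor of the disrupted Hjv (96525172 to 96529210). An effect of the altered locus or of DNA linked to it was not tested. The cytosolic isocitrate dehydrogenase Idh1, a further source of NADPH, measured 240 and 247 against 173 and 124, at -0.73. Adjusted p was 0.418 for Txnip and 0.430 for Idh1 by limma.

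The tissue carried the markers of liver, and those of other cells were low beside them. Hepatocyte markers, 9 tested of 14, summed to 9998 and 10750 scaled FPKM in wild type against 10493 and 14550 in the knockout pair, with 2 above and 3 below, and 4 of the 9 at an unadjusted p under 0.05. Kupffer cell markers, 11 tested of 12, summed to 153 and 192 in wild type against 123 and 189 in the knockout pair, with 0 above and 4 below. Stellate cell markers, 8 tested of 11, summed to 128 and 102 against 142 and 149, with 5 above and 0 below. Endothelial markers, 11 tested of 12, summed to 67.5 and 81.8 against 77.2 and 104, with 3 above and 1 below. Over all genes tested 22.3% lay above and 23.8% below, and 11.2% stood at an unadjusted p under 0.05. Neutrophil markers could be tested for 1 of 10 genes and cholangiocyte markers for 2 of 8. Red cells carry much Prdx2 and Cat, and of 15 erythroid markers 1, Tfrc, could be tested, while 9 had no locus in any library. The beta globin Hbb-bs had a value in 1 library of each group, 79.2 in wild type replicate 1 and 83.5 in knockout replicate 1. The part of other cells in these values was not tested, and in whole tissue fewer cells of a type and less RNA per cell cannot be told apart.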

How the data were processed

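Liver RNA from 2 wild type and 2 hemojuvelin knockout libraries was sequenced. The authors deposited FPKM values for loci assembled in each library, without gene names; FastQC, TopHat and Cufflinks are named per the submitters' processing notes, with build mm9. Locus ends fit GENCODE M21 gene ends on GRCm38 instead: 13.5% to 33.2% of loci over 2000 bases long ended within 20 bases of a gene end, against 0.252% to 0.371% after a shift of 50000 bases, so GRCm38 was used.

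Loci were assigned to coding genes by exon overlap. Loci were dropped where the exonic overlap with another gene exceeded 25% of that with the first, where under 50% of the locus lay inside the gene, or where FPKM exceeded 3 times the midpoint of its confidence bounds. Gene values are means over the remaining loci, with exonic bases as weights, and entered the test where 50% or more of a coding transcript was spanned. This value per gene is a length-weighted mean as planned, and its details were set after the files were seen. Libraries were scaled by medians of ratios. Genes valued in all 4 libraries and reaching 1 FPKM in 2 or more were tested with limma 3.58.1 in R 4.3.3 on log2(scaled FPKM + 1), with a mean-variance trend and Benjamini-Hochberg adjustment over all 7926 genes. Fold differences on this scale understate those of low genes. The script was tested on simulated data.

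The members and lists were chosen with earlier results of these data known. Named genes are all 38 members, the targeted gene, and in each related list at most 4 genes per direction with the smallest unadjusted p under 0.05. Hmox1, Gstm1, Slc3a2, Alb and Hbb-bs were named outside that rule, after their values were seen. Alternatives changed the pseudocount, filter, scaling, trend, replicate block, joining of loci, treatment of absent genes and library set. A GC correction and a stricter span of 80% were added after seeing the data.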

Additional observations from a re-analysis of the deposited data

How the results depend on the processing

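By limma, 0 of the tested members passed an adjusted p of 0.05 under any of 17 other fits. Over all genes the adjusted count of 0 became 1 on values as deposited and 21 with absent genes set to 0, and 1 to 396 with a library left out: 2 without wild type replicate 1, 1 without wild type replicate 2, 396 without knockout replicate 1 and 25 without knockout replicate 2. The 8 members at an unadjusted p under 0.05 became 3 with the highest locus, 1 with summed loci and 5 after the GC correction. They became 4 at a span of 80%, where 28 members were tested, and 1 to 13 with a library left out. The share of all genes at that p was 11.2%, and became 8.66% with the highest locus and 5.10% with summed loci. It was 11.1% after the GC correction and 11.7% at a span of 80%. With a library left out, the fits with 1 and 13 members had the lowest and highest share of all genes. That range is therefore not a property of the members alone. The 11 members below became 4 on values as deposited, and the 10 above became 12. On those values the median log2 difference over all genes was 0.19 in place of 0.02, and the groups did not overlap for 45.1% of all genes. The members' median became 0.15 as deposited, 0.016 under quantile normalization, 0.026 with summed loci, -0.18 after the GC correction, and -0.11 to 0.050 with a library left out. The cause of these shifts was not tested.

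The replicate numbers are not stated to mark pairs. Over the genes tested, deviations from the group means in the replicate 1 libraries had a Pearson correlation of 0.08. The crossed value of -0.08 is fixed as its negative with 2 libraries per group. This correlation cannot decide whether libraries shared a litter or day. With the replicate block 0 genes passed the adjusted threshold, 851 against 886 stood at an unadjusted p under 0.05, and 5 members did.

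Of 555 member values in these fits 28 changed sign, and 0 passed the adjusted threshold. On values as deposited these were Txn1 0.15, Gpx4 0.18, Sod2 0.14, Cbr1 0.089 and Msra 0.064. Under quantile normalization they were Txn1 0.016, Gpx4 0.085 and Sod2 0.0031. After the GC correction they were Txn1 0.025, Prdx5 -0.43, Sod2 0.023 and Taldo1 -0.028. Summed loci gave Pgd 0.13 and Cbr1 0.17, the highest locus Cbr1 0.16, and the span of 80% Gpx4 0.020. With a library left out, the range was -0.089 to 0.40 for Gclc, -0.38 to 0.26 for Txn1, -0.33 to 0.38 for Prdx5, -0.28 to 0.21 for Gpx4, -0.44 to 0.97 for Tkt, -0.46 to 0.65 for Taldo1, -0.29 to 0.050 for Cbr1 and -0.61 to 0.12 for Msrb1. A fit with 1 library in an arm assumes that it varies like the other group.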

Other observations

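Genes that make selenoproteins or encode further ones had 20 listed and 16 tested members. Both knockout libraries lay above for 1 and below for 3, against 22.3% and 23.8% of all genes tested, with a median log2 difference of 0.06. The deiodinase Dio1, which activates thyroid hormone in liver, stood at 86.4 and 95.9 scaled FPKM in wild type against 63.0 and 60.3 in the knockout pair, at a log2 difference of -0.56 with an adjusted p of 0.430 by limma.

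Of 13 genes of coenzyme Q synthesis, the substrate of AIFM2, 11 were tested, with 3 above, 3 below and 5 overlapping, against the same shares. Coq7, a hydroxylase of the pathway, stood at 19.9 and 18.6 in wild type against 8.52 and 12.1 in the knockout pair, at a log2 difference of -0.86. Coq8b, an accessory kinase-like protein, lay the other way at 3.996 and 3.07 against 6.38 and 6.62, at a log2 difference of 0.73. Adjusted p was 0.418 for Coq7 and 0.419 for Coq8b by limma.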
